A study of Mus musculus with 132 samples.

Results

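The genes described here are the simple epithelial keratins Krt7, Krt8, Krt18 and Krt19 and the desmosome genes Dsg2, Dsc2, Jup, Pkp2 and Dsp. They were chosen by name, and all 9 were found among the 32245 genes of the count table, where 7 of the 9 reached a level of 20 CPM, the counts of a gene per 1000000 counts of the cell, in at least 1 group. Single mouse cells were sequenced with Smart-seq2, which copies polyadenylated RNA over the full transcript and carries no molecular identifiers. Embryos of C57BL/6 x DBA F1 parents were cultured from the 2-cell stage in medium that held either a mirVana mimic of miR-381-3p or, in the control groups, a scrambled mimic, at 5 or 10 µM. The 132 cells came from 8-cell embryos at embryonic day 2.5 (30 control and 24 mimic cells) and from 32-cell embryos at day 3.5 (39 control and 39 mimic cells). All 4 groups had been exposed to a synthetic RNA, so no untreated embryo stands beside them.

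The labels give no embryo for a cell. They name both doses without saying which cells had which, and the study's text places 10 µM at the 8-cell and 5 µM at the 32-cell stage for control and mimic alike, so stage and dose cannot be told apart in either treatment. Between 3 and 5 embryos were stated to lie behind each group. Each group was therefore taken as 1 sample, and no test between groups was made. Total counts per cell ranged from 544866 to 3461022, and the medians of the 4 groups from 1212134 to 1339189. All 39 32-cell control cells had more Y-linked than Xist counts, and all 39 32-cell mimic cells had Xist with no Y-linked excess. The 8-cell groups were mixed, with 7 of 30 control and 8 of 24 mimic cells of the first type. Cell numbers in the titles were divided first by group and then at wide gaps in the numbering, which gave 8 runs. That each run holds 1 treatment and 1 stage follows from this rule and not from the labels. Some control and mimic runs follow each other in the numbering without a gap. The runs therefore cannot show whether the treatments were handled apart. Because Xist status split fully by treatment at the 32-cell stage, treatment there cannot be told apart from Xist status or from the embryos used.

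Keratins are the intermediate filament proteins of epithelia. They assemble only as pairs of a type II chain (here Krt7 or Krt8) with a type I chain (here Krt18 or Krt19), and Krt8 with Krt18 form the filaments of simple epithelia. Desmosomes are the adhesive plaques that anchor these filaments at cell borders. The cadherins desmoglein (Dsg2) and desmocollin (Dsc2) bind those of the neighbouring cell, the armadillo proteins plakoglobin (Jup) and plakophilin (Pkp2) gather on their tails, and desmoplakin (Dsp) links the plaque to the keratin filaments. In the mouse the trophectoderm (TE), the outer layer of the blastocyst, is the first tissue to build a keratin network and desmosomes, while the inner cell mass (ICM) stays free of an epithelial sheet.

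The mimic used in the study copies the mature strand of miR-381-3p (RefSeq, GRCm38.p6, chromosome 12, 109726870 to 109726891, plus strand). It is shown first because any direct match to a keratin or desmosome transcript would go through its seed, bases 2 to 8, in capitals. The windows below it hold matches to that seed in the 3′ untranslated regions of 3 of the genes, taken from GENCODE M21 on GRCm38, with the 6 bases TTGTAT in capitals.
miR-381-3p: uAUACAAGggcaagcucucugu
Jup: ctttttttgtttTTGTATagaccaaagcaa
Krt8: aacccaattcagTTGTATtttctaaaataa
Dsp, nearer the stop codon: ccttaggatcatTTGTATgtctactttatc
Dsp, farther from it: tgagaacatagaTTGTATcacccatatatt

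The full 8-base site CTTGTATA was in none of the 9 genes, against 3.11% of 21020 genes, and the 7-base site CTTGTAT was in none either, against 11.2%. The shorter 7-base form TTGTATA, which pairs with bases 2 to 7 and ends in an A, was in Jup and in Dsg2, and 15.5% of all genes held it. A 6-base match alone was in Krt8 and, at 2 places, in Dsp, and 38.1% of all genes held at least 1 such match. The forms overlap, since each longer one contains the 6 bases, and only the strand of the transcript was searched. Krt7, Krt18, Krt19, Dsc2 and Pkp2 held none. A match is a string of letters, not a measured binding site.

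Krt8 (ENSMUSG00000049382.10) lies on chromosome 15 of GRCm38 from 101996698 to 102004482 on the minus strand. Krt18 (ENSMUSG00000023043.7) lies at 102028180 to 102032027 on the plus strand, 23.7 kb away, so that the partner genes are neighbours that point away from each other. The levels of the pair went together across cells, and the sequence just before each annotated transcript is shown here, read from RefSeq's GRCm38.p6 promoter table, which held 5 of the 9 genes (Krt8, Krt7, Krt18, Jup and Dsp). Krt8 is given from chr15:102004483-102004592 on the minus strand and Krt18 from chr15:102027966-102028179 on the plus strand. Capitals mark the only match to the searched motifs in the printed stretches.
Krt8: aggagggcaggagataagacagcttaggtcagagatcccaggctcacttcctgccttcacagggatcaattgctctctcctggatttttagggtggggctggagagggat
Krt18: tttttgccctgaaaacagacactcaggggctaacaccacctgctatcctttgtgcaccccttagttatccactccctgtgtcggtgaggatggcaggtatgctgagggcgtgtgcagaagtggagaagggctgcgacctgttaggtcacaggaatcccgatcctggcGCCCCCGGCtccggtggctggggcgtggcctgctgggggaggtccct

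The match is to GCCNNNGGC, the palindrome bound by TFAP2 factors, which 16.6% of 32851 promoter windows of 300 bases held. The other motifs searched on both strands were TATAAA (13.6% of windows), GGGCGG (35.7%), TGANTCA (7.81%), GGAATG (14.7%) and TTTATNG (10.9%), where the first and the last can share bases. In the whole windows, Krt7 held GCCNNNGGC at 2 places and GGGCGG at 4, Dsp held them at 1 and 4 places, Jup held GGGCGG at 2 places, and Krt8 matched TATAAA at 2 positions next to RefSeq's start. These are descriptions of the sequence and say nothing about which factors were bound.

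Between the 8-cell and the 32-cell stage of control embryos, the 8/18 keratin pair and most of the desmosome genes had higher levels at the later stage. Krt8 and Krt18, the filament pair of simple epithelia, were 24.55-fold and 26.5-fold higher at the 32-cell stage, and desmoplakin was 37.3-fold higher. The cadherins Dsg2 and Dsc2 had no count in any 8-cell control cell and reached 138.9 and 77.1 CPM. Plakoglobin, which also serves adherens junctions, was already present at the 8-cell stage and differed least. Of the 7 genes that reached 20 CPM in either group, 6 were higher by more than 2-fold (a difference of log2(CPM + 1) above 1) and 0 were lower, against 30% higher and 20.1% lower among 7469 genes at that level. Their median log2 difference was 4.70, beside 0.20 over all those genes. Dsg2, Dsc2, Pkp2 and Dsp reached 20 CPM only at the 32-cell stage, beside 0, 0, 0.681 and 4.14 CPM at the 8-cell stage. For these genes, reaching the limit already meant a difference above 2-fold. The count and the median are therefore descriptions, not a test of the genes as a set.

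In 8-cell control cells Krt8 ranged from 0 to 235 CPM with a median of 42.6, and in 32-cell control cells from 213 to 2873 with a median of 794. A single 8-cell control cell lay above the lowest 32-cell control cell. Pooled over cells, that is 50.9 CPM (95% interval 48.6 to 53.3) against 1250 CPM (1240 to 1259), a log2 difference of 4.59. For Krt18 the 8-cell control cells ran from 0 to 519 CPM with a median of 29.3, and the 32-cell control cells from 138.5 to 3085 with a median of 592, with 3 of the former above the lowest of the latter. The pooled Krt18 level went from 47.6 CPM (45.4 to 49.9) to 1262 CPM (1253 to 1272), a log2 difference of 4.70. Intervals here and below are exact Poisson intervals for counts and exact Clopper-Pearson intervals for shares of cells. They cover counting error only, not the spread between embryos, and reads of amplified cDNA are not independent molecules.

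Both keratins were thus measurable before the blastocyst stage, though unevenly. Krt8 had a count in 25 of 30 8-cell control cells (83.3%, 95% interval 65.3 to 94.4) and Krt18 in 20 of 30 (66.7%, 47.2 to 82.7). The pair was not always seen together: 17 of the 30 cells had both, 8 had Krt8 alone, 3 had Krt18 alone and 2 had neither. In 8-cell mimic cells 16 of 24 had both, 6 had Krt8 alone, 1 had Krt18 alone and 1 had neither. All 78 32-cell cells had both.

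At the 32-cell stage the 8/18 pair stood near the top of the transcriptome. Per kilobase of transcript, a scale that allows levels of different genes to be set side by side, Krt18 stood at 33.1 CPM and Krt8 at 26 CPM in 8-cell control cells, places 2496 and 2940 among 31411 genes with an annotated length. In 32-cell control cells they stood at 879 and 638 CPM per kilobase, places 28 and 53, and in 32-cell mimic cells at 957 and 670, places 23 and 49. The next highest of the 9 genes on this scale in 32-cell control cells was Dsg2 at 24.1 CPM per kilobase. Dsc2 (16.7), Dsp (16.1), Jup (13.1) and Pkp2 (7.55) followed, and Krt7 (0.738) and Krt19 (0.647) were last. In 32-cell mimic cells the order below the keratin pair was Dsp (20.0 CPM per kilobase), Dsg2 (12.3), Pkp2 (8.77), Jup (8.25), Dsc2 (5.88), Krt19 (4.64) and Krt7 (1.65). Krt18 stood above Krt8 and Krt8 above the next gene in every run of both treatments. Of the lower neighbours, Dsp over Jup, Jup over Pkp2 and Pkp2 over Krt7 kept their order in both control runs, and Dsp over Dsg2 in all 3 mimic runs. Of these lower pairs, only Pkp2 and Krt7 had ranges over runs that do not overlap, and the other neighbours changed places in at least 1 run.

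**Figure D1:**
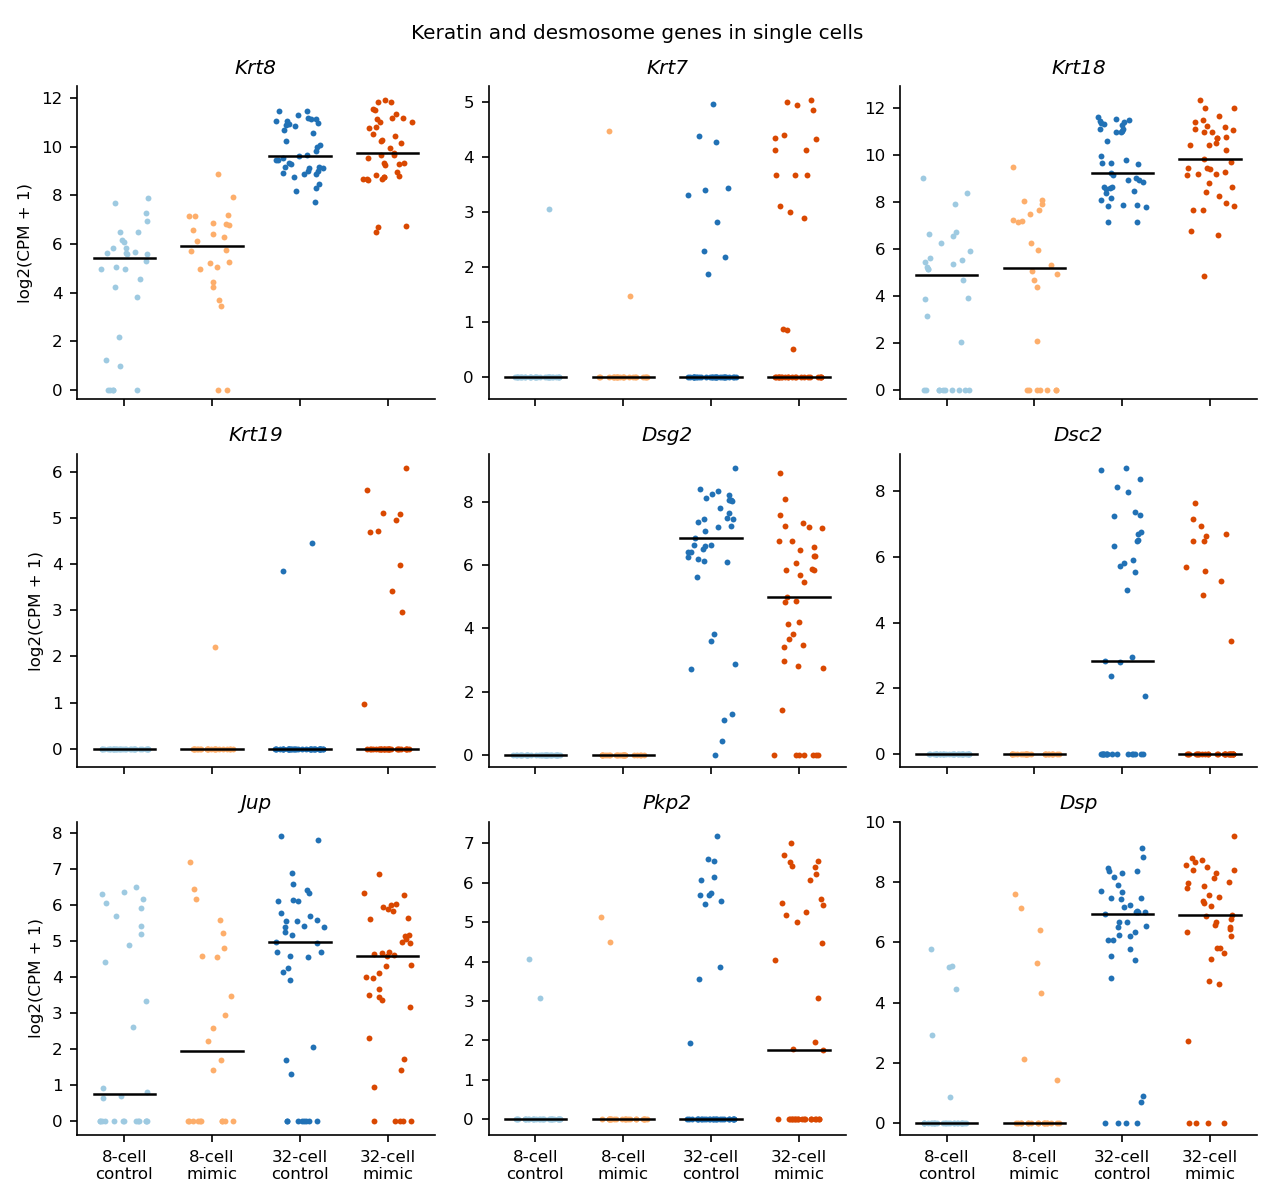
Levels of the 9 genes in each of the 132 cells, as log2(CPM + 1), by stage and treatment, where each point is a cell and the black line is the group's median. Krt8 and Krt18 are high in all 32-cell cells of both treatments, Dsg2 and Dsc2 lie at 0 in all 8-cell cells, and Krt7 and Krt19 lie at 0 in most cells of every group.

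The other keratins of the set stayed scarce. Krt7, a second type II chain, was pooled at 0.272 CPM in 8-cell control cells, where 1 of 30 cells had a count, and at 3.02 CPM (2.59 to 3.51) in 32-cell control cells, where 10 of 39 did. Krt19, the type I chain without a tail domain, had no count at the 8-cell stage of control embryos (a limit of 0.0817 CPM) and 1.02 CPM in 32-cell control cells, where 1 cell gave 74.1% of its 58 counts. Neither gene reached 20 CPM in any group, so neither enters the counts of differences. For Krt7 and Krt19 the 3 counts that a zero allows correspond to 2.31 to 2.55 CPM in a cell of median depth, so a level below that would often go unseen in 1 cell. This covers counting alone, and a higher level can go unseen too.

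The desmosomal cadherins were undetected in every 8-cell cell and present in part of the 32-cell cells. Dsg2 (ENSMUSG00000044393.15, chromosome 18, 20558074 to 20604521, plus strand) and Dsc2 (ENSMUSG00000024331.11, chromosome 18, 20030633 to 20059554, minus strand) lie 498.5 kb apart. Neither gene had a count in any of the 54 8-cell cells, and the limits set by 3 counts are 0.0817 CPM (control) and 0.0971 CPM (mimic). In 32-cell control cells Dsg2 ranged from 0 to 543 CPM with a median of 116.5 and had a count in 38 of 39 cells. Dsc2 ranged from 0 to 416 CPM with a median of 6.06 and had a count in 23 of 39. By counting alone, against the 3 counts that a zero allows, Dsg2 was at least 1700-fold and Dsc2 at least 944-fold higher at the 32-cell stage. Since reads of amplified cDNA are not independent molecules, these folds are not firm lower limits. Every cell with Dsc2 also had Dsg2 in control embryos (23 of 23), and 15 control cells had Dsg2 without Dsc2.

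The armadillo proteins divided. Jup (ENSMUSG00000001552.14, chromosome 11, 100368958 to 100397763, minus strand), the plakoglobin gene, ranged from 0 to 90 CPM with a median of 0.682 in 8-cell control cells and from 0 to 242 CPM with a median of 30.6 in 32-cell control cells, so the groups overlap widely. Its pooled level went from 22.4 CPM (20.9 to 24.0) to 41.97 CPM (40.3 to 43.7), a log2 difference of 0.88 that stayed under 2-fold. It depended on the run: without run 1 of the 32-cell control cells it was -0.22, and without run 2 it was 1.32. Pkp2 (ENSMUSG00000041957.15, chromosome 16, 16213318 to 16272712, plus strand), the plakophilin of simple epithelia and heart, was found in 2 of 30 8-cell control cells and in 13 of 39 32-cell control cells. Pooled Pkp2 was 0.681 CPM (0.440 to 1.005) and 22.02 CPM (20.8 to 23.3), 32.4-fold higher (95% interval 21.8 to 50.2), and the median cell was at 0 in both groups. The level lay near the limit, and without run 1 of the 32-cell control cells it was 12.2 CPM.

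Dsp (ENSMUSG00000054889.10, chromosome 13, 38151294 to 38198577, plus strand), which ties the plaque to keratin filaments, ranged from 0 to 54.5 CPM in 8-cell control cells with a median of 0 and had a count in 6 of 30. In 32-cell control cells it ranged from 0 to 556 CPM with a median of 123 and had a count in 35 of 39. The pooled level was 4.14 CPM (3.51 to 4.85) against 154.4 CPM (151.2 to 157.7), a log2 difference of 4.92. Most 32-cell cells therefore lie above every 8-cell control cell, and 4 have no count.

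In mimic-treated embryos, again 6 of the 7 genes at 20 CPM or more were higher at the 32-cell stage by more than 2-fold and 0 were lower, against 29.1% higher and 18.8% lower among 7594 genes. Their median log2 difference was 3.69, beside 0.20 over all those genes. Dsg2, Dsc2 and Pkp2 were at 0, 0 and 1.84 CPM in 8-cell mimic cells, so reaching 20 CPM fixed their calls here too. Krt8 was 15.4-fold and Krt18 13.0-fold higher, and Dsp was 11.7-fold higher. Pkp2 was 13.9-fold higher (19.93 CPM, just under the limit, without run 1 of the 32-cell mimic cells), and Jup 1.51-fold. By counting alone, Dsg2 was at least 733-fold and Dsc2 at least 280-fold higher than the limit that a count of 0 allows. The control and the mimic comparison share no cells. With only the cells of matching Xist status on both sides, Y-linked in control and Xist in mimic embryos, the counts were again 6 and 6.

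**Figure D2:**
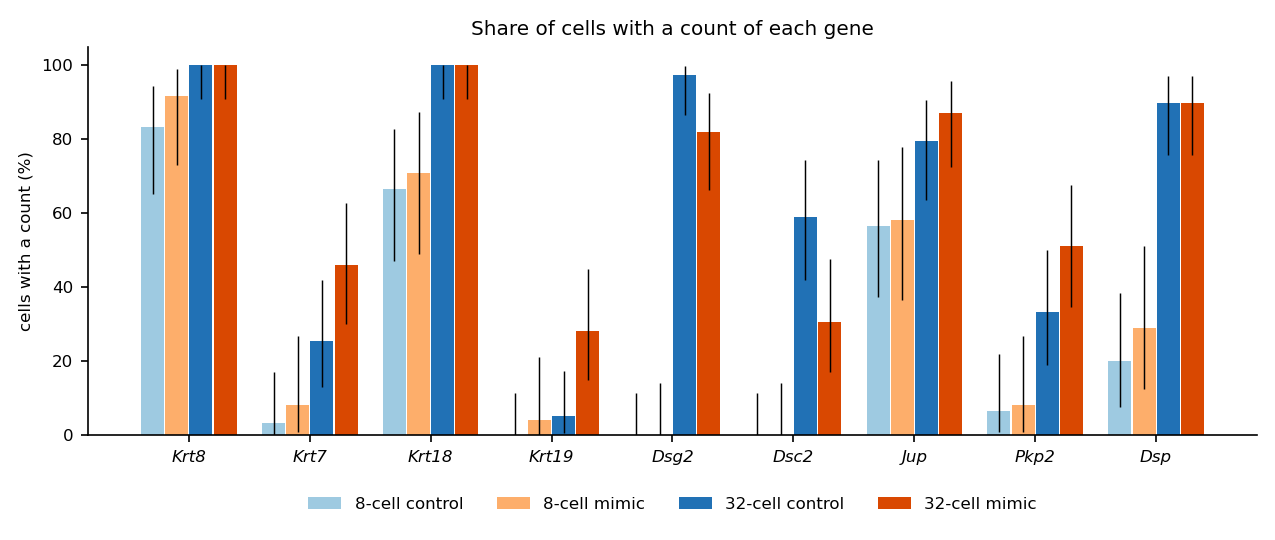
Share of cells with at least 1 count of each gene, in percent, by stage and treatment, with exact 95% Clopper-Pearson intervals as error bars. Krt8 and Krt18 reach 100% in both 32-cell groups, Dsg2 and Dsc2 are at 0% in both 8-cell groups, and Dsc2 falls between them with 59.0% of 32-cell control and 30.8% of 32-cell mimic cells.

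How many of the 5 desmosome genes a cell showed followed the stage as well. The median was 1 in both 8-cell groups and 4 in both 32-cell groups. At least 3 of the 5 were seen in 0 of 30 8-cell control cells, 1 of 24 8-cell mimic cells, 36 of 39 32-cell control cells (92.3%, 79.1 to 98.4) and 30 of 39 32-cell mimic cells (76.9%, 60.7 to 88.9). With every cell thinned to 522178 counts, the 32-cell numbers were 31 and 28. All 5 were seen in 5 control and 6 mimic cells.

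The 8-cell groups were compared to see whether the mimic went with another level of the epithelial genes before the lineages part. Krt18 was 2.23-fold higher in mimic cells (95% interval 2.10 to 2.36) and was the only 1 of the 3 genes at 20 CPM or more past 2-fold, at a log2 difference of 1.14. Krt8, at 85.4 against 50.9 CPM, was 1.68-fold higher (1.58 to 1.78), and Jup, at 17.5 against 22.4 CPM, was lower by a ratio of 0.781. Thus 1 gene was higher and 0 were lower, against 6.96% higher and 6.09% lower among 6570 genes. The median log2 difference of the 3 was 0.73, beside 0.03 over all those genes.

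The cells overlap throughout in this comparison. Krt18 ran from 0 to 708 CPM in 8-cell mimic cells with a median of 35.5, beside a median of 29.3 in control, and the highest mimic cell alone gave 29.2% of the group's counts. The Krt18 difference depended on how cells were weighted, and was 0.78 by the mean of per-cell CPM, 0.79 by the difference of mean log2 values and 0.80 after thinning every cell to 522178 counts, each under 2-fold. Other genes passed under these settings, Dsp at 1.78 by the mean of per-cell CPM and 1.72 after thinning, and Krt8 at 1.09 by mean log2 values. Krt8 ran from 0 to 470 CPM in mimic cells with a median of 60.5, beside 42.6 in control. Among cells with more Y-linked than Xist counts, Krt18 was 103.3 CPM in 8 mimic cells and 13.2 CPM in 7 control cells. Among those with Xist it was 123 CPM in 14 mimic and 62.1 CPM in 23 control cells, a log2 difference of 0.98. Dsp, under the 20 CPM limit, was 16.4 CPM in 8-cell mimic and 4.14 CPM in 8-cell control cells, found in 7 of 24 and 6 of 30 cells, and the 3 highest mimic cells gave 85.8% of its counts.

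At the 32-cell stage the keratin pair did not separate the treatments, whereas the desmosomal cadherins were lower in mimic cells. Krt8 was 1313 CPM in mimic and 1250 CPM in control cells, and Krt18 was 1375 and 1262 CPM, ratios of 1.05 and 1.09. Dsc2 was 27.2 against 77.1 CPM, a log2 difference of -1.47, and Dsg2 was 71.1 against 138.9 CPM, a log2 difference of -0.96 just under the 2-fold line, which it passed with TMM factors (-1.06) or median-of-ratios factors (-1.05). Of the 7 genes at 20 CPM or more, 0 were higher and 1 (Dsc2) was lower by more than 2-fold, against 6.87% higher and 5.36% lower among 7307 genes. The median log2 difference was 0.07, beside 0.01 over all those genes.

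In single cells, Dsg2 ranged from 0 to 485 CPM in 32-cell mimic cells with a median of 31.1, beside 0 to 543 CPM and a median of 116.5 in control. It had a count in 32 of 39 mimic and 38 of 39 control cells. Dsc2 ranged from 0 to 197 CPM in mimic cells with a median of 0, beside a median of 6.06 in control, and had a count in 12 of 39 mimic (30.8%, 17 to 47.6) and 23 of 39 control cells (59.0%, 42.1 to 74.4). The ranges overlap for both genes, and the difference lies in how many cells are high and in how high they are. Thinning each cell to 522178 counts left the Dsc2 shares at 12 and 23 cells.

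The runs of cell numbers give the nearest thing to a repeat within a group. Pooled Dsg2 was 121 and 150.6 CPM in the 2 control runs and lay between 43.9 and 117.4 CPM in the 3 mimic runs, so they do not overlap, though the closest values differ little. The 117.4 CPM of mimic run 3 came mostly from 1 cell, with 57.7% of that run's counts. Dsc2 was 54.9 and 110 CPM in the control runs and 14.6 to 38.1 CPM in the mimic runs, again without overlap. Without run 2 of the control cells the Dsc2 difference was -0.99, just inside 2-fold, and those of Dsg2 and Jup were then -1.07 and -1.09. Without run 3 of the mimic cells that of Dsg2 was -1.41. Runs may hold cells of 1 or several embryos, so their spread was not used as an error. How often the runs of any gene separate by treatment was not counted over all genes. A lack of overlap, here and below, is therefore a description only.

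**Figure D3:**
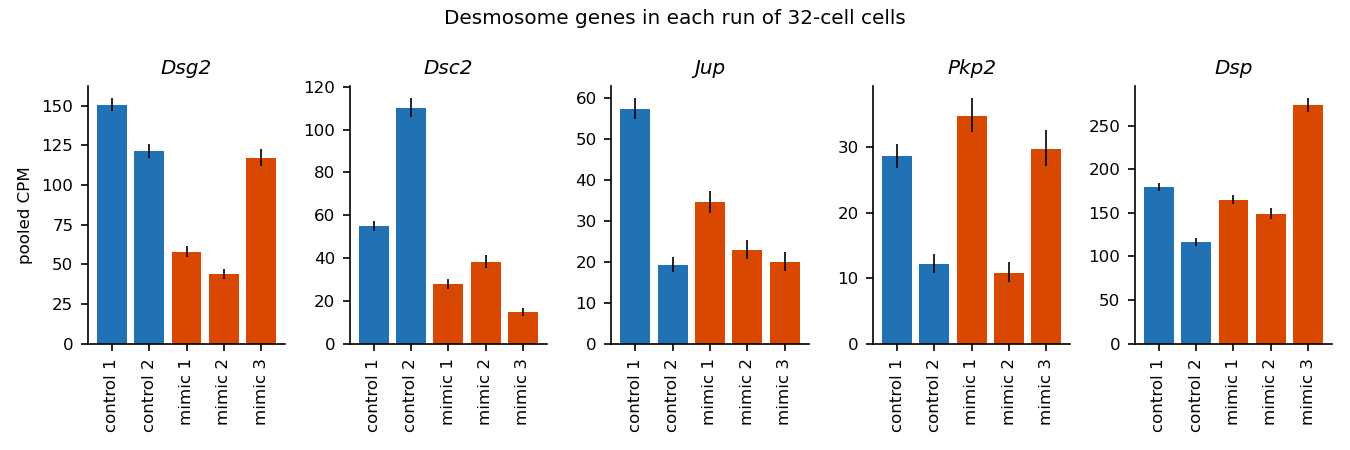
Pooled level of the 5 desmosome genes, in CPM, in each run of consecutive cell numbers at the 32-cell stage (2 control runs in blue, 3 mimic runs in orange), with exact 95% Poisson intervals as error bars. Dsg2 and Dsc2 are higher in each control run than in each mimic run, while the runs of Jup, Pkp2 and Dsp overlap.

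The remaining plaque genes showed no such separation. Jup was 26.4 CPM in mimic and 41.97 CPM in control cells, a log2 difference of -0.65, but its control runs stood at 19.2 and 57.3 CPM and its mimic runs between 19.9 and 34.5 CPM. Without run 1 of the control cells the difference was 0.45, the opposite direction. Pkp2 was 25.6 against 22.02 CPM and had a count in 20 of 39 mimic and 13 of 39 control cells. Its difference of 0.21 was 1.01 without run 1 of the control cells. Dsp was 192 CPM in mimic and 154.4 CPM in control cells, with a count in 35 of 39 cells of each.

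Set beside the seed matches, Dsg2 and Jup, which hold the TTGTATA form, had log2 differences of -0.96 and -0.65. Krt8 and Dsp, with 6-base matches, had 0.07 and 0.31. Dsc2, at -1.47, and Krt18 and Pkp2, at 0.12 and 0.21, hold no match. Whether the mimic acts on any of these transcripts was not tested.

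Krt7 and Krt19 were both under 20 CPM. Krt7 was 6.74 CPM (6.06 to 7.48) in 32-cell mimic and 3.02 CPM (2.59 to 3.51) in control cells, with a count in 18 and 10 of 39 cells, and its runs did not overlap between treatments (2.14 and 3.61 CPM in control, 4.92 to 9.50 CPM in mimic). Krt19 was 7.31 CPM (6.60 to 8.07) in mimic and 1.02 CPM (0.774 to 1.32) in control cells, with a count in 11 and 2 of 39 cells. Krt19 stood at 14.1 CPM in run 1 of the mimic cells and at 0.694 CPM in run 3, so its mimic level came mainly from part of the cells.

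The 32-cell cells hold the 2 lineages that first differ in their epithelial character. Among the sequenced cells their mixture was not alike in the treatments. Clustering without any keratin, desmosome or marker gene gave a cluster of 44 cells in which all 8 TE markers (Cdx2, Gata3, Eomes, Id2, Fgfr2, Dab2, Tspan8 and Elf3) were higher, called TE-like, and a cluster of 34 cells in which all 9 ICM markers (Pdgfra, Tdgf1, Spic, Nanog, Gdf3, Fgfr1, Klf2, Fgf4 and Gata6) were higher, called ICM-like. The margin was small for Fgf4 (12.1 against 11.2 CPM) and Gata6 (130 against 125 CPM). TE-like cells were 14 of 39 control cells (35.9%, 21.2 to 52.8) and 30 of 39 mimic cells (76.9%, 60.7 to 88.9). Placing each cell by its marker score gave 14 control and 21 mimic cells, and clustering on all genes 14 and 26, so the mimic share rests on how cells are placed. In the study, staining of 32-cell embryos for Sox2 and Cdx2 protein found no shift in ICM and TE shares with 5 µM mimic. That is another measure on other embryos, beside cells of 3 to 5 embryos per group here. The classes also go with treatment and Xist status, since 25 of the 34 ICM-like cells were control (Y-linked) and 30 of the 44 TE-like cells mimic (Xist) cells. The 10 genes that set the ICM-like cluster apart most by fold include Y-linked Uty, and those of the TE-like cluster X-linked Tceal9, Mbnl3 and Bex3. Clustering with X- and Y-linked genes left out as well, an alternative chosen after seeing the data, put 0 of 78 cells in another class. The clusters come from the same cells, so the differences between them are descriptions.

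In control embryos the 8/18 keratin pair marked the TE-like cells without overlap. Krt8 ran from 1525 to 2873 CPM with a median of 2118 in the 14 TE-like cells and from 213 to 1207 CPM with a median of 566 in the 25 ICM-like cells. Krt18 ran from 1508 to 3085 CPM in TE-like and from 138.5 to 973 CPM in ICM-like cells. Pooled, Krt8 was 3.58-fold and Krt18 6.01-fold higher in TE-like cells, and both were present in every ICM-like cell. Dsc2 was 7.05-fold higher (151.5 against 21.5 CPM) and Dsp 2.08-fold (219.5 against 105.8 CPM). Of 7 genes at 20 CPM or more, 4 were higher by more than 2-fold and 0 lower, against 10.1% higher and 11.9% lower among 7239 genes. The median log2 difference was 1.05, beside -0.07 over all those genes.

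The other control differences were smaller. Dsg2 was 189 CPM in TE-like and 101.2 CPM in ICM-like control cells, 1.87-fold higher, and was found in all 14 and in 24 of 25 cells. Pkp2 was 29.1 against 16.8 CPM, with a count in 8 of 14 and 5 of 25 cells, and a single ICM-like cell gave 54.4% of that class's counts. Jup was the most even, at 46.6 and 38.5 CPM. Krt19 was found in 2 TE-like and 0 of 25 ICM-like cells, and Krt7 in 7 and 3 cells.

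In mimic embryos the same pair was again higher in TE-like cells, but the classes overlap. Krt8 ran from 90.1 to 3826 CPM with a median of 1218 in the 30 TE-like cells and from 104.5 to 1394 CPM with a median of 426.5 in the 9 ICM-like cells. Krt18 ran from 107.3 to 5037 CPM in TE-like and from 27.8 to 825 CPM in ICM-like cells. Pooled, Krt8 was 3.10-fold, Krt18 4.60-fold, Dsp 3.52-fold and Pkp2 6.67-fold higher in TE-like cells. Thus 4 of 7 genes were higher by more than 2-fold and 0 lower, against 9.10% higher and 10.3% lower among 7505 genes, and the median log2 difference was 1.63, beside -0.04. Pkp2 reached 20 CPM only in TE-like cells (30.9 against 4.64 CPM), which fixed its call. Dsg2, at 76.2 against 51.2 CPM, passed 2-fold with clusters from all genes (1.32) and with classes set by marker score (1.74). Dsc2, at 24.5 CPM in TE-like and 37.9 CPM in ICM-like mimic cells, did not have the direction it had in control, though with classes set by marker score it was higher in TE-like cells (34.0 against 18.5 CPM). A single ICM-like cell gave 50.25% of that class's Dsc2 counts, so this direction rests largely on 1 cell. Whether the class difference of Dsc2 differs between treatments was not tested. Jup was 28.5 CPM in TE-like and 18.5 CPM in ICM-like mimic cells. Under 20 CPM, Krt7 was 8.45 CPM in TE-like cells (18 of 30 with a count) and had no count in the 9 ICM-like cells, while Krt19 was lower in TE-like cells, at 4.73 against 17.4 CPM. With classes set by marker score these differences were small, at 7.48 against 5.79 CPM for Krt7 and 6.71 against 8.07 CPM for Krt19.

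**Figure D4:**
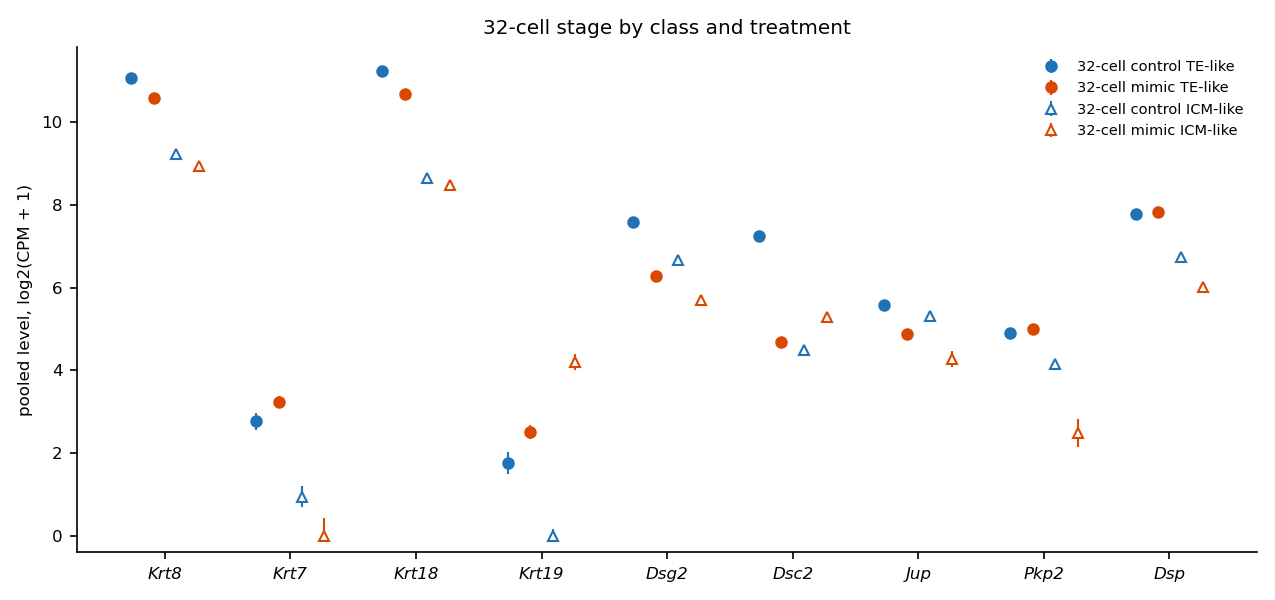
Pooled level of the 9 genes at the 32-cell stage, as log2(CPM + 1), in TE-like cells (filled circles) and ICM-like cells (open triangles) of control (blue, 14 and 25 cells) and mimic embryos (orange, 30 and 9 cells), with exact 95% Poisson intervals as error bars. Krt8 and Krt18 are the highest in every class, and Dsc2 stands apart in control TE-like cells at 151.5 CPM.

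Within TE-like cells, Dsc2 and Dsg2 differed most between treatments among the genes at 20 CPM or more. Marker score placed 21 rather than 30 mimic cells in this class, and 14 control cells as before. Dsc2 was 24.5 CPM in mimic and 151.5 CPM in control cells, a log2 difference of -2.58, with a count in 9 of 30 and 12 of 14 cells. Its control TE-like cells ran from 0 to 416 CPM with a median of 130, and its mimic TE-like cells from 0 to 141.4 CPM with a median of 0. Dsg2 was 76.2 against 189 CPM, a log2 difference of -1.30, with medians of 37.4 and 270 CPM. By run, TE-like Dsc2 was 97.3 and 225 CPM in control and 14.6 to 32.2 CPM in mimic, and TE-like Dsg2 was 167.5 and 205 CPM against 47.0 to 117.4 CPM. With classes set by marker score the Dsc2 difference was -2.12 and that of Dsg2 -0.87, under 2-fold. Of 7 genes at 20 CPM or more, 0 were higher and 2 lower by more than 2-fold, against 11.8% higher and 8.05% lower among 7327 genes, with a median of -0.56 beside 0.05.

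The keratin pair, Jup, Pkp2 and Dsp stayed within 2-fold in the same cells. Krt8 was 1521 against 2126 CPM and Krt18 1634 against 2414 CPM, ratios of 0.715 and 0.677. With classes set by marker score the treatments lay closer together (log2 differences of -0.12 and -0.19 in place of -0.48 and -0.56). Dsp was 225 against 219.5 CPM, a ratio of 1.02 (0.990 to 1.06), and Pkp2 30.9 against 29.1 CPM, a ratio of 1.06 (0.971 to 1.17). Jup was 28.5 against 46.6 CPM, a log2 difference of -0.69. Under 20 CPM, Krt7 was 8.45 against 5.83 CPM and Krt19 4.73 against 2.38 CPM.

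ICM-like cells were few in mimic embryos, and their values rest on 9 cells. Of 6 genes at 20 CPM or more, 0 were higher and 1 (Jup, 18.5 against 38.5 CPM) was lower by more than 2-fold, against 12.6% higher and 10.1% lower among 7482 genes, and with classes set by marker score the Jup difference of -1.02 was -0.89. Dsg2 was 51.2 against 101.2 CPM, a log2 difference of -0.97 (-1.72, past 2-fold, with classes set by marker score), and had a count in 5 of 9 mimic and 24 of 25 control cells. A single mimic cell gave 44.0% of its counts in that class. Dsc2 had the opposite direction, at 37.9 against 21.5 CPM (0.79, or -0.21 with classes set by marker score), with a count in 3 of 9 and 11 of 25 cells. A single mimic cell gave 50.25% of its counts in that class. Krt8 was 491 against 594 CPM, Krt18 355 against 402 CPM and Dsp 63.9 against 105.8 CPM, each within 2-fold. For Dsp that rests largely on 1 mimic cell, which gave 50.8% of the class's counts. Under 20 CPM in both, Pkp2 was 4.64 against 16.8 CPM and Krt7 had no count against 0.921 CPM, the reverse of the order by marker score (5.79 against 0.921 CPM). Krt19 was 17.4 CPM in mimic ICM-like cells, where 5 of 9 had a count, and had none in the 25 control ICM-like cells. That is at least 189-fold by the limit of 3 counts, which covers counting alone, and Krt19 stayed under 20 CPM. Placing cells by marker score lowered that level to 8.07 CPM in 18 cells.

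Across 32-cell cells the type II and type I chains of the main pair went together. Pearson's r between log2(CPM + 1) of Krt8 and Krt18 was 0.87 over 78 cells, 0.90 over the 39 control and 0.85 over the 39 mimic cells. Within classes it was 0.94 over the 30 mimic TE-like cells, 0.57 over the 25 control ICM-like cells, 0.30 over the 9 mimic ICM-like cells and 0.25 over the 14 control TE-like cells, whose levels span a narrow range. The cells of a group share embryos and library preparation, so they are not independent. The summed pair had an r of 0.07 with log2 depth.

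**Figure D5:**
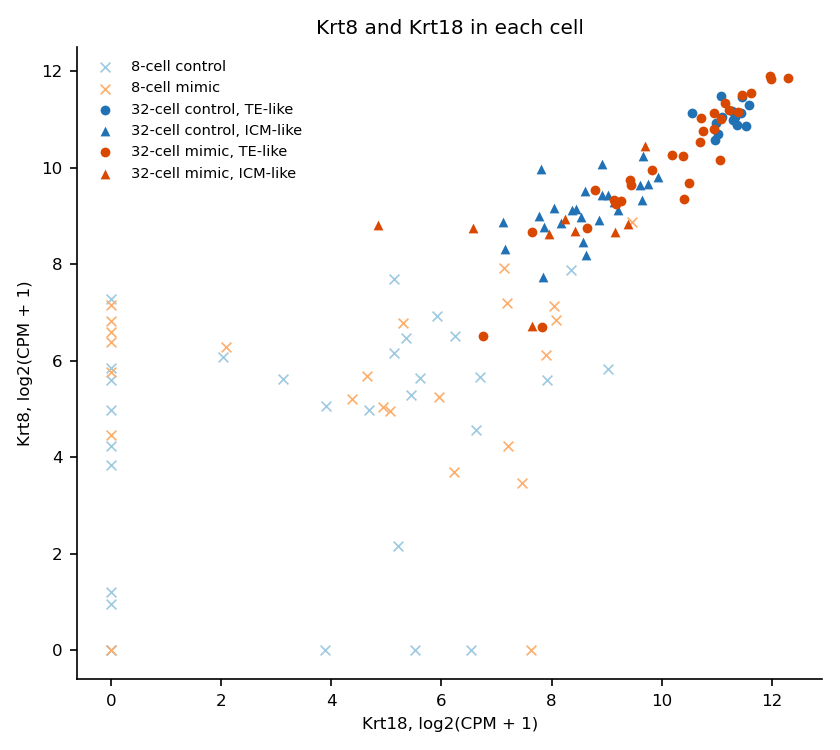
Krt8 against Krt18 in each of the 132 cells, both as log2(CPM + 1), with crosses for 8-cell cells and circles (TE-like) or triangles (ICM-like) for 32-cell cells. All 78 32-cell cells have both transcripts, most near a common line with some off it. The control TE-like cells form a tight group near its upper end, some mimic TE-like cells lie above them, and 8-cell cells scatter, some with 1 keratin and not the other.

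Per kilobase, type II transcripts (Krt8 and Krt7) stood at 0.727 of type I transcripts (Krt18 and Krt19) in 32-cell control and 0.699 in 32-cell mimic cells. The ratio was 0.647 in control TE-like and 1.09 in control ICM-like cells, and 0.683 and 0.972 in the mimic classes. Krt18 exceeded Krt8 per kilobase in 13 of 14 control TE-like cells and in 11 of 25 control ICM-like cells. In mimic embryos it did so in 28 of 30 TE-like and 4 of 9 ICM-like cells. Type I transcripts were thus the more abundant in TE-like cells of both treatments.

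The desmosome genes were tied more loosely to the keratins and to each other. Over the 78 32-cell cells, Krt8 had an r of 0.50 with Pkp2, 0.35 with Dsp, 0.35 with Dsg2, 0.32 with Dsc2 and 0.18 with Jup. Dsg2 and Dsc2 had an r of 0.24 and were both detected in 34 cells. Of the 36 pairs among the 9 genes, only Krt8 with Krt18 passed 0.50. Many of these cells have no count for 1 of the genes, and in sparse counts a weak r cannot be read as a lack of relation.

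Outside the gene lists, the transcripts most like the keratin pair over the 78 cells, by Pearson's r with log2 of their summed CPM, were Gm2a (0.88), Fabp3 (0.84), Cd63 (0.80), Akr1b8 (0.79) and Ap2a2 (0.79) among 8470 genes with a count in at least 33% of the cells. Gm2a encodes a lysosomal cofactor of ganglioside breakdown, Fabp3 a fatty acid binding protein, Cd63 a tetraspanin of late endosomes, Akr1b8 an aldo-keto reductase and Ap2a2 a subunit of the clathrin adaptor AP-2. In control cells Fabp3 was 645 CPM in TE-like and 98.6 CPM in ICM-like cells, and Akr1b8 was 943 and 230 CPM. Like Krt8 and Krt18, both were low at the 8-cell stage, at 15.7 and 5.04 CPM in control cells. Gm2a and Cd63 were already at 1771 and 2057 CPM there.

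Other keratins were nearly absent. Of 16 others examined (among them the stratified chains Krt5 and Krt14), none reached 20 CPM in any comparison and 10 had no count in any cell, so none could be compared. Krt10, a suprabasal chain of skin, was the most widespread, at 7.38 CPM in 32-cell control cells with a count in 23 of 39. Krt23 was 9.15 CPM in 32-cell mimic cells from 1 cell.

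Of 13 other desmosome genes, Dsg1a, Dsg1b, Dsg1c, Dsg3, Dsg4, Dsc1, Dsc3 and Pkp1, which belong mainly to stratified epithelia, had no count in any cell. Perp, a tetraspan protein of desmosomes, and Pkp4, a plakophilin relative of cell junctions, were the 2 at 20 CPM or more. In control embryos both were higher at the 32-cell stage by more than 2-fold (30% of all genes), Perp at 178 against 86.1 CPM and Pkp4 at 75.7 against 19.9 CPM. In mimic embryos neither was (29.1% of all genes were), at ratios of 1.98 and 1.05. Before that, in 8-cell embryos, Perp was 2.11-fold and Pkp4 2.83-fold higher with the mimic, where 6.96% of all genes were higher. At the 32-cell stage Perp was 359 against 178 CPM, a ratio of 2.02 (6.87% of all genes were higher), and Pkp4 59.1 against 75.7 CPM. Their median log2 difference was 0.33 there, beside 0.01 over all genes tested. In TE-like control cells Perp was 2.03-fold higher than in ICM-like cells, while Pkp4 was lower, at 36.1 against 105.2 CPM, beside 10.1% of all genes higher and 11.9% lower. In mimic embryos neither passed 2-fold between the classes, where 9.10% of all genes were higher and 10.3% lower. Within ICM-like cells Perp was 2.45-fold higher in mimic, and Pkp4 was lower at 46.4 against 105.2 CPM, beside 12.6% of all genes higher and 10.1% lower. Within TE-like cells neither passed 2-fold (11.8% and 8.05% of all genes).

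Filament linkers and hemidesmosome genes were mixed. Of 10 listed, 6 were at 20 CPM or more between the stages of control embryos, where Plec, Dst and Itga6 were higher and Itgb4 and Dnajb6 lower by more than 2-fold, beside 30% and 20.1% of all genes, with a median of 0.78 beside 0.20 over all genes tested. Plec, whose product plectin crosslinks intermediate filaments, was 103.4 against 21.3 CPM, and Itgb4, the integrin chain of hemidesmosomes, was 4.50 against 39.7 CPM. In mimic embryos 4 of 7 were higher (Plec, Dst, Itga6 and Fam83h) and 2 lower (Itgb4 and Dnajb6), beside 29.1% and 18.8% of all genes, with Plec at 227 against 16.3 CPM and a median of 1.71, beside 0.20. Plec was also the single gene of this list past 2-fold in 3 further comparisons. It was 2.20-fold higher in 32-cell mimic than control cells (1 of 6 genes, beside 6.87% of all), 2.93-fold higher in TE-like than ICM-like control cells (1 of 5, beside 10.1%) and 2.56-fold higher in TE-like than ICM-like mimic cells (1 of 6, beside 9.10%). None of 6 passed 2-fold between mimic and control at the 8-cell stage, within TE-like or within ICM-like cells, where 6.96%, 11.8% and 12.6% of all genes were higher and 6.09%, 8.05% and 10.1% lower, so 0 of 6 is near the background.

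Among other intermediate filaments, Vim, Nes, Gfap and Des were below 20 CPM in every group and the lamins Lmna, Lmnb1 and Lmnb2 were above it, except Lmnb2 in 8-cell mimic cells. In 8-cell embryos Lmna and Lmnb2 were lower with the mimic, at 86.8 against 197 CPM and 14.8 against 34.8 CPM (2 of 3 lamins, beside 6.09% of all genes). Lmna was 4.04-fold higher at the 32-cell than at the 8-cell stage of mimic embryos (1 of 3, beside 29.1%), and Lmnb2 was lower in TE-like than in ICM-like control cells, at 22.8 against 53.2 CPM (1 of 3, beside 11.9%). No lamin passed 2-fold in the other 5 comparisons, where 0 of 3 is near the background except between the stages of control embryos (30% of all genes higher and 20.1% lower).

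Plakoglobin's partners at adherens junctions were present from the 8-cell stage. Cdh1 (E-cadherin) and Ctnna1 (alpha-catenin) were higher by more than 2-fold at the 32-cell stage of control embryos, at 360 against 170 CPM and 748 against 292 CPM, and so were both in mimic embryos together with Ctnnb1 (beta-catenin). These are 2 of 4 and 3 of 4 genes, beside 30% and 29.1% of all genes. No gene of this list at 20 CPM or more passed 2-fold between mimic and control at either stage, between the classes or within TE-like cells. With 4 or 5 genes that is near the background, where 6.87% to 11.8% of all genes were higher and 5.36% to 11.9% lower. Cdh3 (P-cadherin) was higher in mimic than in control ICM-like cells, at 26.4 against 5.13 CPM (1 of 5, beside 12.6%). Under that limit, it was also higher in all 32-cell mimic cells (16.2 against 3.603 CPM) and in TE-like mimic cells (13.6 against 1.56 CPM). Cdh1 was 289 CPM in 32-cell mimic and 360 CPM in control cells, a log2 difference of -0.32. Within TE-like cells Cdh1 was 317 against 484 CPM (-0.61), and within ICM-like cells 178 against 267 CPM (-0.58).

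Markers of other cells were checked beside these values. Of 7 cumulus and granulosa markers, 4 to 6 had no count in a group, Fshr, Inhba and Col1a2 among them in every group, and the summed level was at most 106.3 CPM in any cell, mainly from Star. Their pooled sum was 2.40 and 4.66 CPM at the 8-cell stage (control, then mimic) and 17.3 and 3.48 CPM at the 32-cell stage, so it too was lower in 32-cell mimic cells. Of 6 oviduct and uterus markers, Pgr and Ltf were at 0 in every group, with a pooled sum of 14.5 and 18.7 CPM (control, then mimic) at the 8-cell and 1.76 and 3.06 CPM at the 32-cell stage. Oocyte transcripts summed to 77.9 CPM in 8-cell control, 38.6 CPM in 8-cell mimic, 0.404 CPM in 32-cell control and 2.55 CPM in 32-cell mimic cells. Their part in the keratin and desmosome values was not tested. Krt8 and Krt18 have processed copies in the genome (Krt8-ps on chromosome 7 is annotated), the table holds 1 row for each parent gene and none for such copies, and reads shared with them could not be told apart.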

How the data were processed

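The authors aligned Smart-seq2 reads to mm10 with STAR (2.5.1b), quantified genes with RSEM (1.3.0) and deposited estimated counts per gene and cell. All deposited values were whole numbers. The study's filter (at least 3000 genes, under 10% mitochondrial counts) removed 0 cells, and all columns were matched to a labelled sample. The 13 mitochondrial genes were left out.

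Counts were summed over the cells of a group or class and divided by their total to give CPM (counts per 1000000). A log2 difference is that of log2(CPM + 1). A gene was counted as different at 20 CPM or more in either group and more than 2-fold, with no test, since no label gives the embryo of a cell. A share or ratio has an exact 95% interval for counting error only, and a count of 0 a limit of 3 counts.

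Cells were clustered with Seurat (5.3.0) in R (4.3.3) on every other gene in alphabetical order, without these genes, the lists and the class markers, at a resolution of 0.8, with 2000 variable genes and 25 components. No doublet caller was run on these picked cells. TMM factors came from edgeR (4.0.16), as an alternative only. Lengths, 3′ untranslated regions and coordinates were read from GENCODE M21.

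The genes and lists were chosen with earlier results of these data known. The 9 genes were named whatever their values. Of the lists, genes past 2-fold are named, with others as examples, and the 5 genes most like the keratin pair. Krt5, Krt14, Krt10 and Krt23 were named after their values were seen.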

Additional observations from a re-analysis of the deposited data

How the results depend on the processing

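The stage comparisons were the steadiest. The count of 6 genes higher by more than 2-fold was 5 to 8 over 15 alternatives in control embryos and 5 to 8 over 15 in mimic embryos, and 0 were lower in all of them. At the 8-cell stage, the count of 1 gene higher in mimic cells was 2 at a fold of 1.5, 2 with no filter on low genes, 2 with Y-linked cells alone and 0 at a fold of 4, and it stayed 1 in the other 10 of 14 alternatives, although in 4 of these Krt8 or Dsp took the place of Krt18 (mean of per-cell CPM, difference of mean log2 values, thinned counts and Xist cells alone). At the 32-cell stage, the count of 1 gene lower in mimic cells was 2 with median-of-ratios factors, with TMM factors, with the mean of per-cell CPM, with the difference of mean log2 values, with thinned counts, without run 2 of control cells and without run 3 of mimic cells. It was 3 at a fold of 1.5 and 0 at a fold of 4. The count of 0 higher was 1 with no filter on low genes and 1 without run 1 of control cells. Between classes, the count of 4 higher in TE-like cells ran from 2 to 6 over 7 alternatives in each treatment. It was 2 at a fold of 4 in both, 6 in both by mean log2 values and 6 in control at a fold of 1.5. No gene past 2-fold changed direction under any alternative.

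The Dsc2 difference between treatments at the 32-cell stage ran from -1.98 to -0.99 over 16 alternatives and that of Dsg2 from -1.72 to -0.72, negative in all 16 for each. Jup ran from -1.09 to 0.45 and Pkp2 from -0.16 to 1.01. The 36 shares of cells with a count stayed within their intervals when thinned, and 32 of 36 correlations moved by no more than 0.1 with Spearman's rho. When cells were placed by marker score the control classes held the same cells, and of the 18 mimic class levels 15 left their counting interval. The causes of these shifts were not tested.

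With 1 sample per group, no value here carries an error between embryos. At 1212134 to 1339189 counts in a median cell, a level under about 2.31 CPM can go unseen in a cell by counting alone. Reads of amplified cDNA are not independent molecules, so a higher level can go unseen too. No paired analysis was possible because the cell numbers name cells and no comparison was tested.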
